A study of Homo sapiens with 8 samples.

Results

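The expression of 10 receptor tyrosine kinases (*EGFR*, *ERBB2*, *ERBB3*, *MET*, *AXL*, *FGFR1*, *FGFR2*, *IGF1R*, *KIT* and *EPHA2*) was examined in lung cancer cell lines on 8 Agilent 2-color arrays. These genes were taken from a list by symbol, with probes named through their RefSeq accessions, and all 10 were found among 22439 genes named on the array. They were covered by 18 probes. In the control cells, 9 of the 10 genes were well above background in at least 1 line.

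EBC-1 and SK-MES-1 are lung squamous cell carcinoma lines, SBC-3 is a small cell lung cancer line and A549 is a lung adenocarcinoma line. Both squamous lines received *miR-150-3p* by transfection (1 array each), and SBC-3 cells received siRNAs numbered siDONSON-1, siDONSON-2 and siDONSON-3 (1 array each). In A549, *LOXL2* was edited with CRISPR/Cas9, and 3 edited samples were hybridized; whether they are separate clones is not given. Each treated RNA (Cy5) was hybridized against RNA of the same line (Cy3), which the labels call both mock and not transfected for the transfections and not edited for A549. The time between treatment and harvest is not given in the labels. Nothing in the labels says that the 3 controls of SBC-3 or of A549 came from separate cultures, so that the spread between them may be technical, and EBC-1 and SK-MES-1 have 1 control each.

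Receptor tyrosine kinases are membrane proteins that bind a growth factor outside the cell, pair up and phosphorylate each other on tyrosines. Adaptor proteins such as GRB2 and SHC1 dock on these sites and pass the signal to the RAS-MAPK and PI3K-AKT pathways, and CBL ligases, Sprouty proteins and phosphatases restrain it. In lung cancer, *EGFR*, *ERBB2*, *MET* and *FGFR1* can be activated by mutation or by extra gene copies, and EBC-1 is known for *MET* amplification.

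The lines were first compared with markers of their labeled types. Of 7 squamous markers, 1 was above background in EBC-1 (*SOX2*) and 4 in SK-MES-1 (*SOX2*, *PKP1*, *KRT14* and *TP63*), and the squamous keratin genes *KRT5* and *KRT6A* and the desmosomal *DSG3* were not well above background in any line. Of the same 7 genes, 3 were above background in SBC-3 and 2 in A549, and *SOX2* (14.32) and *TP63* (6.47) were highest in SBC-3. A gene counted for a line when any control array of that line passed. SBC-3 and A549 had 3 such arrays and the squamous lines 1 each, so that counts are not on equal terms between lines. *TP63* passed on 1 of 3 A549 arrays and *KRT14* on 2 of 3 SBC-3 arrays. Of the small cell markers, *NEUROD1* and *SYP* were above background only in SBC-3, *CHGA* also in A549, and *DLL3* in all 4 lines. *CHGA* was at 8.09 in A549 and 6.26 in SBC-3 and *DLL3* at 10.89 and 8.94, and *NCAM1* was above background only in SK-MES-1 (8.36). Of 6 adenocarcinoma and alveolar markers, 2 were above background in EBC-1 and 3 in each of the other lines. In SBC-3, *NKX2-1* and *SFTPC* each passed on only 1 of 3 arrays, and *SFTPC* passed on 2 of 3 A549 arrays. *KRT7* was at 17.50 in A549, 17.01 in EBC-1, 16.1 in SK-MES-1 and 10.56 in SBC-3. *NAPSA* was at 6.37 in EBC-1 and 6.05 in A549, and *NKX2-1* was not well above background in A549. The epithelial genes *CDH1*, *EPCAM* and *ESRP1* were all above background in EBC-1, while SK-MES-1 had only *EPCAM*, A549 had *CDH1* and *EPCAM*, and SBC-3 had none of the 3. Of 4 mesenchymal markers, *VIM* and *CDH2* were above background in EBC-1 and all 4 in the other lines, with *FN1* in SBC-3 on only 1 of 3 arrays. Of 4 blood and stroma genes, 2 or 3 were above background in each line; *COL1A1* was highest in SK-MES-1, at 11.98.

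Promoter sequences are shown for *MET* and *AXL*, whose control levels ranged most between the lines, and for *EPHA2*, which fell in *LOXL2*-edited cells. This order holds with probes not well above background set to a floor, where the log2 range of *ERBB3* (at least 3.44) is a bound, beside 4.34 for *AXL*. The sequences are credited to RefSeq. They are windows of 300 bases around the start of each gene (GRCh38.p14) and are written from 5′ to 3′. Capitals mark the GC box GGGCGG on either strand. The *MET* entry lies at chr7:116671946-116672245 on the + strand, the upstream of 2 *AXL* entries at chr19:41218973-41219272 on the + strand, and the *EPHA2* entry at chr1:16156020-16156319 on the - strand.
MET: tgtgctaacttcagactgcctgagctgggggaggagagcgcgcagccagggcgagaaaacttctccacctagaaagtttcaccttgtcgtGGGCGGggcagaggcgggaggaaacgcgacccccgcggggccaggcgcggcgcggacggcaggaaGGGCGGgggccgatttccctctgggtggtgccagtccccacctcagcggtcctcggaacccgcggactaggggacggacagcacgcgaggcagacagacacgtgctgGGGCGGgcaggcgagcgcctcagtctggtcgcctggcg
AXL: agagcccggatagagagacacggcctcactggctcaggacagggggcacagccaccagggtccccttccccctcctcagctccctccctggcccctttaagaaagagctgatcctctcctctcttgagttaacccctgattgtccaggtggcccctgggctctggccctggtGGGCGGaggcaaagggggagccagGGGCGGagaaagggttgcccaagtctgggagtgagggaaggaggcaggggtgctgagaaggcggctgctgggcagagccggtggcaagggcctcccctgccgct
EPHA2: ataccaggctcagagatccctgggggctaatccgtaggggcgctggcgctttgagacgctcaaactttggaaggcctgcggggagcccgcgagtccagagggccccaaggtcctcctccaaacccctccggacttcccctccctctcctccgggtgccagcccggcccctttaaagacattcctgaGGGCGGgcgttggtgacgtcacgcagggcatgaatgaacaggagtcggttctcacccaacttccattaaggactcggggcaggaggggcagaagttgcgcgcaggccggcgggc
The *MET* window held 3 GC boxes, 30 CpG dinucleotides and 69.3% G or C. The *AXL* window held 2 GC boxes but 7 CpG, and the *EPHA2* window 1 GC box and 20 CpG. Over 35116 promoters of the same length, 45% held at least 1 GC box, the median G and C content was 58.7% and the median number of CpG was 14. The AP-1 motif TGANTCA, held by 7.71% of all promoters, had 0 matches in each of the 3 windows.

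With dim probes at the floor, *MET* and *AXL* separated the lines most of the examined receptors, though ranges that rest on a floor, such as that of *ERBB3*, are bounds. *MET*, the receptor of hepatocyte growth factor, had a normalized control level (log2 of the green intensity) of 13.86 in SK-MES-1, and EBC-1 stood at 16.86. The 3 SBC-3 controls were at 8.34, 8.21 and 8.38, and the 3 A549 controls at 14.46, 14.59 and 14.62. EBC-1 was therefore highest and SBC-3 lowest, with no overlap between SBC-3 and A549. The *MET* level in EBC-1 was 8.01-fold that in SK-MES-1, 4.92-fold that in A549 and 375-fold that in SBC-3, a log2 range of 8.55 that was 7.40 with normexp. The same probe gave 17.05 in the *miR-150-3p*-transfected EBC-1 cells (red channel). No spot was saturated (0 on every array).

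*AXL*, the receptor of GAS6 linked to migration and drug resistance, had its highest control level in SK-MES-1 (14.39), followed by A549 (13.34, 13.29 and 13.29), EBC-1 (12.63) and SBC-3 (10.12, 10.03 and 9.98). SBC-3 was again the lowest, 20.2-fold below SK-MES-1 and 6.01-fold below EBC-1. The RNA of all cells in a culture was measured together, so that fewer expressing cells and less RNA per cell cannot be told apart. *HGF*, the ligand of MET, was well above background only in the SK-MES-1 control (5.67). *GAS6* was above background in all 4 lines and highest in SK-MES-1 (9.12).

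**Figure D1:**
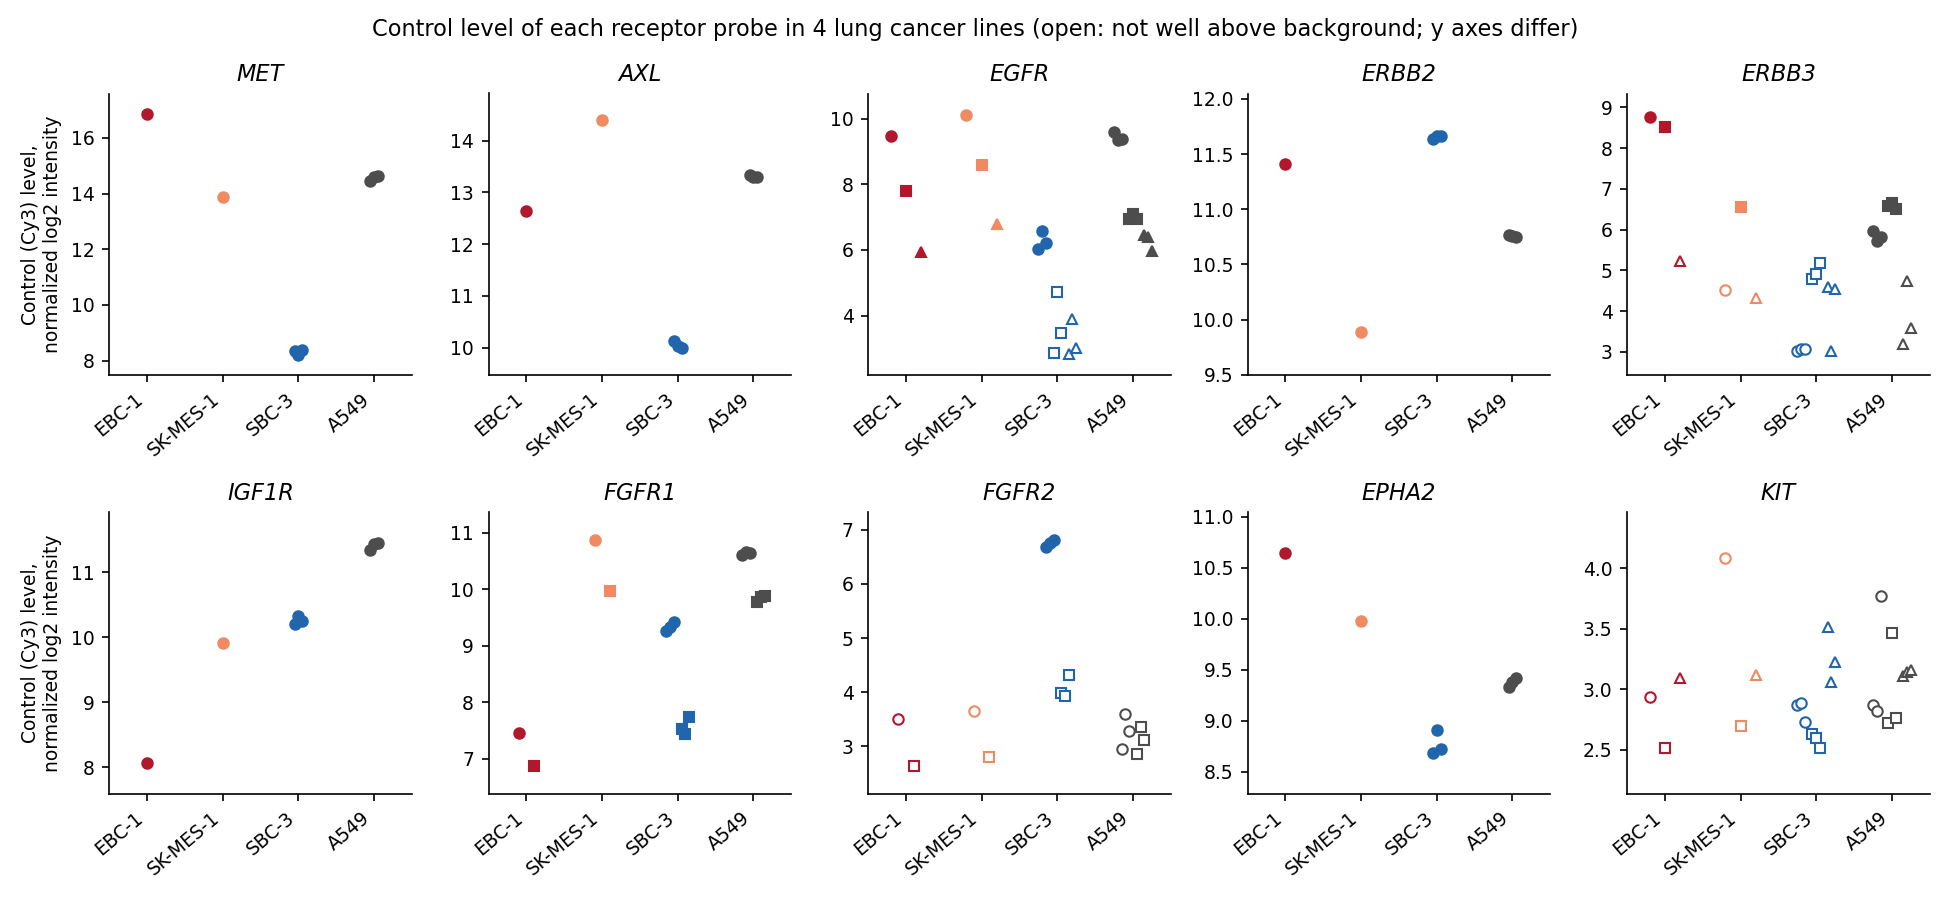
Control (Cy3) levels of the 18 probes of 10 receptor tyrosine kinases in EBC-1, SK-MES-1, SBC-3 and A549 cells, as normalized log2 intensity. Each point is a probe on 1 array, marker shapes are the probes of a gene, open points are not well above background, and each panel has its own axis. *MET* stands at 16.86 in EBC-1 and below 8.4 in SBC-3, and the points of *KIT* are all open.

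The genes beside *MET* were also higher in EBC-1. In the order of all annotated genes, 8 of the 20 nearest neighbors were measured, and the control level in EBC-1 exceeded the mean of the other 3 lines for all 8, with a median log2 difference of 2.98 (1.48 with normexp background correction). For 7 of the 8 the difference was past 4-fold (log2 difference of 2), against 4.94% of all genes, and the median over all genes was 0.08. The exception was *COMETT*, at 1.92, which was above background in EBC-1 only, so that its difference could only be positive.

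*CAV1* and *CAV2*, which encode the caveolins of membrane pits, stood next to *MET* in the table. In the order EBC-1, SK-MES-1 and A549, the *CAV1* control levels were 15.12, 12.39 and 13.17, and those of *CAV2* were 11.40, 8.57 and 8.82. *TES*, a focal adhesion gene, had 12.11, 9.11 and 8.92. All 3 were higher in EBC-1, by a log2 difference from SK-MES-1 of 2.73 (*CAV1*), 2.83 (*CAV2*) and 3.00 (*TES*), beside 3.00 for *MET* itself. On the other side, *CAPZA2*, which encodes an actin capping subunit, exceeded its SK-MES-1 level by 2.87, and *ST7* by 2.73. In SBC-3, *TES* and *CAV2* were not well above background, so that their distance from that line is a bound.

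A wider window of 30 protein-coding genes on either side, chosen after these values were seen, gave 33 measured genes. Of the 4 measured among the 10 genes before *MET*, all 4 (*MDFIC*, *TES*, *CAV2* and *CAV1*) were higher in EBC-1 than the mean of the other lines, by at least 2.04. *MDFIC* was only 0.76 above SK-MES-1 and 0.86 above A549, its mean being lowered by the floor in SBC-3. Among the 10 after it, *CAPZA2*, *ST7*, *LSM8* and *ANKRD7* were at least 2-fold higher (*ANKRD7* was above background in EBC-1 only, so that it could only come out higher), while *KCND2* and *TSPAN12*, which were not well above background in EBC-1, were not. Farther out, 15 of 16 measured genes before *MET* were above 0 with a median of 1.07, and 3 of 7 after it with a median of -0.00478. Against SK-MES-1 alone, 6 of these 7 were above 0, with *FAM3C* the exception, beside a median of 0.08 over all genes. Of the 6, *CPED1* was dim in EBC-1, whose floor (5.396) lies above that of SK-MES-1 (4.765), so that its sign carries no weight. *ING3*, *NDUFA5* and *WASL*, above background in all 4 lines, turned from below 0 to above it. The end of the raised stretch thus depends on the line compared. DNA copy number was not measured on these arrays, and its part in the levels was not tested.

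**Figure D2:**
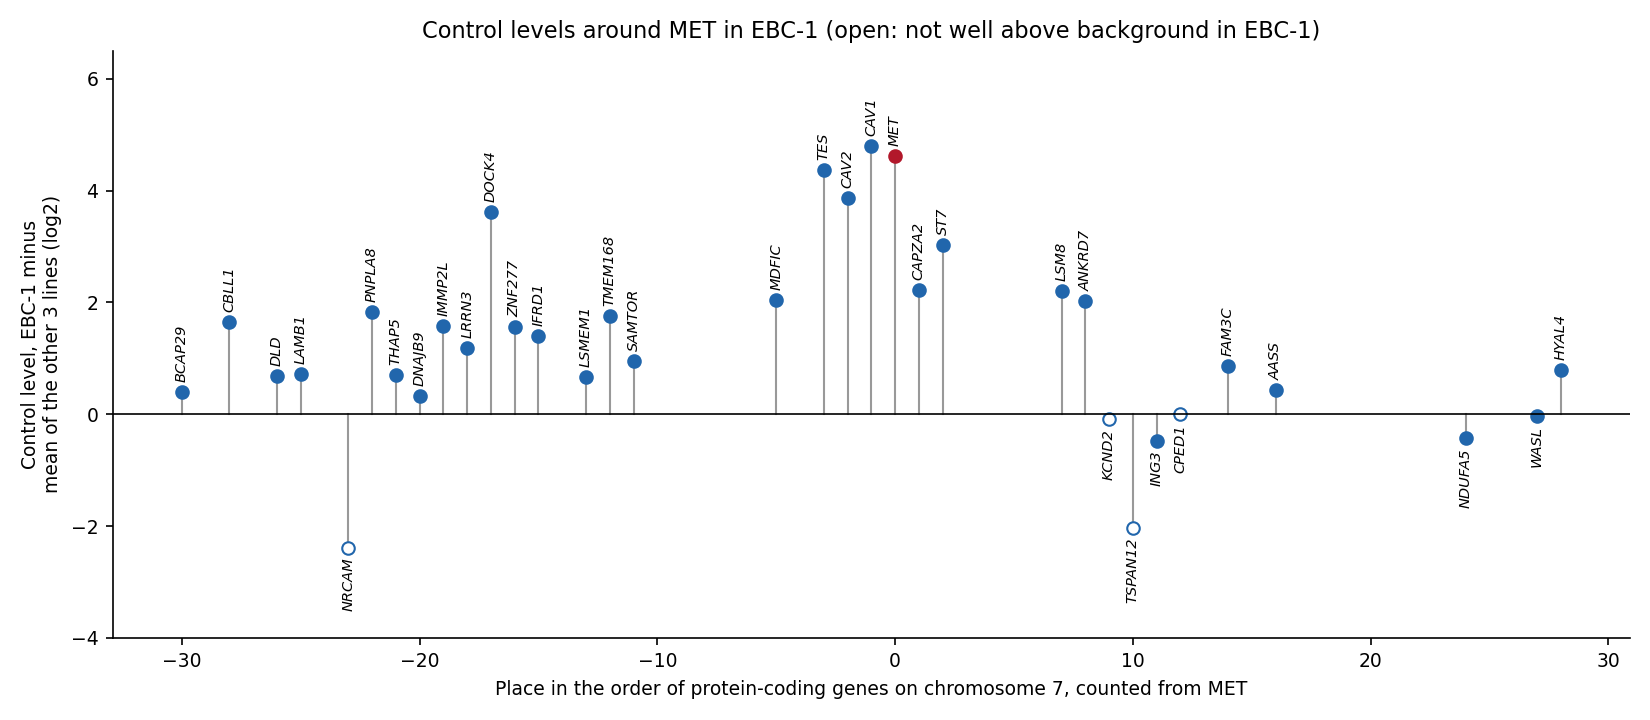
Control level in EBC-1 minus the mean of SK-MES-1, SBC-3 and A549 (log2) for the measured protein-coding genes within 30 places of *MET* on chromosome 7, in gene order. Measured genes from *MDFIC* to *LSM8* are at 2.04 or more; open points are not well above background in EBC-1.

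The same comparison was made for the other receptors, each in the line with its highest level. The median difference of the measured neighbors was 0.47 for *EGFR* (4 genes, SK-MES-1), -0.39 for *ERBB2* (10 genes, SBC-3), 0.25 for *ERBB3* (13 genes, EBC-1), -0.59 for *AXL* (8 genes, SK-MES-1), -0.26 for *FGFR1* (10 genes, SK-MES-1), 0.01 for *FGFR2* (5 genes, SBC-3) and 0.44 for *EPHA2* (8 genes, EBC-1). *IGF1R* had 1.19 over 5 genes in A549, where *SYNM* (3.34) and the *IGF1R* antisense gene *IRAIN* (2.98) were past 4-fold. *SYNM* and *IRAIN* stood at the floor in EBC-1, so that both differences are bounds. *LETM2*, close to *FGFR1*, was 2.66 higher in SK-MES-1, and *BTBD16* near *FGFR2* at least 3.02 higher in SBC-3. *BTBD16* stood at the floor in EBC-1 and SK-MES-1, and was at 9.15 in SBC-3 and 8.23 in A549. No measured neighbor of *EGFR*, *ERBB2*, *ERBB3*, *AXL* or *EPHA2* was more than 4-fold higher (0 each), and *GRB7* near *ERBB2* was lower, at -2.21; over all genes, 3.41% to 6% were past it, depending on the line. In the order of protein-coding genes alone, which reaches farther, *GRB10* near *EGFR* was at 3.84 and *STAC2* near *ERBB2* at 4.06. Both differences are bounds, since *GRB10* stood at the floor in SBC-3 and *STAC2* in every line but SBC-3. *STAC2* was measured through SBC-3 only, so that its difference could only be positive. The median around *IGF1R* in this order was -0.14 over 18 genes.

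The ERBB family binds the EGF-like ligands. *EGFR*, their best known receptor, had 3 probes. The probe of the full-length transcript gave a control level of 10.10 in SK-MES-1, 9.48 in EBC-1, 6.28 in SBC-3 (mean of 3) and 9.43 in A549 (mean of 3). The 2 probes of shorter transcripts were not well above background in SBC-3. SBC-3 was thus the lowest line by every *EGFR* probe. Averaged over the probes, with dim ones at the lowest bright signal, *EGFR* in SK-MES-1 was at least 7.68-fold its level in SBC-3, and SBC-3 lay at least 4.03-fold below A549.

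*ERBB2*, the partner without a ligand of its own, was the receptor with the smallest range. Its control level was 9.88 in SK-MES-1, 11.41 in EBC-1, 11.64, 11.66 and 11.66 in SBC-3, and 10.77, 10.76 and 10.75 in A549. No pair of lines was past 4-fold (0 of 6), and the widest gap, SBC-3 over SK-MES-1, was 3.41-fold. *ERBB3*, the receptor of neuregulins with a nearly inactive kinase, was highest in EBC-1 at 8.63. It was at 6.21 in A549 and 5.66 in SK-MES-1 with the dim probe at its floor, and no *ERBB3* probe was well above background in the control of SBC-3. EBC-1 was 5.38-fold above A549 and at least 10.9-fold above SBC-3. The *ERBB3* probes did not all measure: 1 of the 3 was not well above background in any control.

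Among the remaining receptors, *IGF1R*, the receptor of insulin-like growth factors, had its highest control level in A549 (11.34, 11.43 and 11.46). It was at 10.21, 10.33 and 10.25 in SBC-3, 9.91 in SK-MES-1 and 8.06 in EBC-1. EBC-1, the line with the most *MET* signal, thus had the least *IGF1R*, 10.2-fold below A549. *FGFR1*, a receptor of fibroblast growth factors, was at 10.42 in SK-MES-1 and 10.18, 10.26 and 10.26 in A549. The SBC-3 controls followed at 8.39, 8.38 and 8.58 and EBC-1 at 7.16, 9.55-fold below SK-MES-1. The difference between SK-MES-1 and A549 was 0.19 in log2 and had no replicate check in SK-MES-1.

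*FGFR2*, the epithelial fibroblast growth factor receptor, was well above background only in the SBC-3 controls (6.68, 6.76 and 6.81), at least 3.97-fold above SK-MES-1. *EPHA2*, a receptor of ephrin-A ligands, was highest in EBC-1 (10.65), then SK-MES-1 (9.98), A549 (9.33, 9.38 and 9.42) and SBC-3 (8.68, 8.91 and 8.72), with no pair past 4-fold (0 of 6). *KIT*, the receptor of stem cell factor, was not well above background with any of its 3 probes, on any array, in either channel.

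Counted by pairs of lines, a control level was called different past 4-fold, a threshold used for every pair because EBC-1 and SK-MES-1 have 1 control. Between EBC-1 and SK-MES-1, 3 of 8 compared receptors were past it (*MET* and *ERBB3* higher in EBC-1, *FGFR1* lower), against 10.2% of all genes. EBC-1 and SBC-3 differed in 5 of 9 (*MET*, *AXL*, *EGFR* and *ERBB3* higher in EBC-1, *IGF1R* lower), against 16.9%. Of these, *ERBB3* entered the pair through EBC-1 only, so that it could only come out higher there. EBC-1 and A549 differed in 4 of 8 (*MET* and *ERBB3* higher in EBC-1, *FGFR1* and *IGF1R* lower), against 11.9%. *MET*, *AXL* and *EGFR* were past 4-fold between SK-MES-1 and SBC-3 (3 of 9, against 17.2%) and between SBC-3 and A549 (3 of 9, against 14.5%), with SBC-3 lower each time. The last count was 2 without the control of siDONSON-1, as *EGFR* was at 4.03-fold. With normexp, the counts of the 3 EBC-1 pairs were 1, 2 and 2. SK-MES-1 and A549 differed in 0 of 8, against 10.2%. A receptor entered a pair only when it was above background in at least 1 of the 2 lines. *FGFR2* entered the pairs with SBC-3 through SBC-3 only and was past 4-fold in none of them.

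The genes whose control levels ran most like each receptor over the 4 lines were found by Euclidean distance of line-centered log2 levels among 16428 other genes. The nearest to *MET* were *B3GNT3* (distance 1.08), *IGFBP3* (1.15) and *SGCE* (1.22). For *ERBB3* the nearest was another receptor kinase, *EPHB4* (0.12), followed by *TM4SF1-AS1* and *PRRG2* (both 0.26). *TIPARP*, *SPATS2L* and *IGFBP6* came nearest to *EGFR* (0.16 to 0.24) and *PRKD1*, *FJX1* and *TIMP2* to *AXL* (0.20 to 0.44). For *FGFR1* they were *STOX2*, *MAP1B* and *PIK3CD-AS2* (0.19 to 0.44), for *IGF1R* *GGT1*, *NBEA* and *SNORA59B* (0.26 to 0.29), for *EPHA2* *HSF4*, *CHMP4B* and *KLF16* (0.10 to 0.13) and for *ERBB2* *SLC22A7*, *ANAPC16* and *UBE2N* (0.11 to 0.15). *EPHA8*, *LRRC55* and *DDR2* resembled *FGFR2* because all were at the floor outside SBC-3. Floors also enter other distances: *ERBB3*, *TM4SF1-AS1*, *PRKD1* and the 3 genes nearest to *MET* stood at the SBC-3 floor. *PIK3CD-AS2* and *SNORA59B* stood at the EBC-1 floor, and the SBC-3 level of *EGFR* rests in part on floored probes. Ranks that involve these genes are approximate.

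In the rest of the family, 34 of 48 other receptor tyrosine kinases were above background in at least 1 line (23 in EBC-1, 25 in SK-MES-1, 26 in SBC-3 and 24 in A549). These counts are not on equal terms, since any 1 of 3 arrays sufficed in SBC-3 and A549. *MUSK*, *STYK1* and *EPHA4* counted for A549, and *PDGFRB* and *ROR1* for SBC-3, on 1 of 3 arrays. The 5 with the widest range were *EPHB6*, *MST1R*, *STYK1*, *AATK* and *EPHB3*. *MST1R*, the closest relative of *MET* and the receptor of macrophage-stimulating protein, had a control level of 10.19 in SK-MES-1, 11.51 in EBC-1 and 8.66 in A549. It was not well above background in SBC-3, at least 79.8-fold below EBC-1, so that it followed *MET* in having its top in EBC-1 and its bottom in SBC-3. *EPHB6*, which lacks kinase activity, was at least 133-fold higher in SK-MES-1 (11.93) than in A549. *AATK* (10.09) and *EPHB3* (9.38) were highest in SBC-3, and *STYK1* in EBC-1 (9.68).

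Of 26 ligands, 23 were above background in at least 1 line. *IGF2*, a ligand of IGF1R, had a control level of 15.98, 15.97 and 15.92 in SBC-3, against 9.25 in SK-MES-1, 9.54 in EBC-1 and 7.14 in A549, the last with 1 probe at its floor. The EGFR ligands amphiregulin and epiregulin ran the other way: *AREG* was at 11.24 in SK-MES-1, 11.75 in EBC-1 and 11.59 in A549 but above background on only 1 of 3 SBC-3 arrays, and *EREG* was at 11.48, 10.37 and 10.42 in those 3 lines and not well above background in SBC-3. *HBEGF* was highest in EBC-1 (11.30). *FGF9* was above background only in SBC-3 (10.42). SBC-3 thus had low *EGFR*, *AREG* and *EREG* and high *IGF2* and *FGF9*.

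Of 18 adaptors, 16 were above background, and the widest ranges were those of *GAB2* (10.81 in EBC-1, 7.12 in SBC-3), *SRC* (10.64 in A549, 6.97 in EBC-1), *PIK3R1* (8.31 in A549, dim in SBC-3), *IRS1* (log2 range 2.06) and *SOS2* (2.03). Among 22 negative regulators and shedding genes, 21 were above background. *IGFBP3*, which binds insulin-like growth factors, was at 12.65 in EBC-1 and not well above background in SBC-3, at least 176-fold lower. *RASA1* (log2 range 4.66) and *PTPRK* (4.14) were likewise lowest in SBC-3, *LRIG1* (4.10) was lowest in EBC-1, and *PTPRJ* (3.90) was lowest in SBC-3.

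Next, the response to each treatment was measured as the log2 ratio of the processed intensities, treated over control. The targeted genes were examined first. *DONSON* had log2 ratios of -2.15, -1.79 and -2.11 with siDONSON-1, siDONSON-2 and siDONSON-3, and fell by 2.02 on average (limma, adjusted p = 0.00168). *LOXL2* had -2.49, -2.67 and -2.59 in the edited A549 samples and fell by 2.58 (limma, adjusted p = 0.00126). Both genes were lower on 3 of 3 arrays, and no array went against its label.

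To ask whether *miR-150-3p* altered the receptors in squamous cells, 8 of the 10 could be tested, since *KIT* had a value on neither array and *FGFR2* only on that of SK-MES-1. None of the 8 passed an adjusted p of 0.05 in limma, against 5.38% of 14230 genes (3 at an unadjusted p under 0.05, against 30% of all genes). *AXL* had a log2 ratio of -0.39 in SK-MES-1, and in EBC-1 of -1.24, a mean of -0.82 (adjusted p = 0.0993). In the order EBC-1, SK-MES-1, *FGFR1* had -0.83 and -0.54 (adjusted p = 0.0803) and *EGFR* -0.57 and -0.47 (adjusted p = 0.064). These 3 receptors were below 0 on both arrays, though the SK-MES-1 value of *AXL* did not pass the 95% limits set by the scanner software's error. The *EGFR* values average 3 probes of unlike size. The full-length probe gave -0.73 and -0.57, and the 2 probes of shorter transcripts gave -0.35 and -0.17, and -0.65 and -0.67. With siDONSON-2 left out, *EGFR* came to an adjusted p of 0.0397, and *FGFR1* to 0.0438 without siDONSON-3, since the spread was shared by all 8 arrays.

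In the same order, *ERBB3* had 0.07 and 0.96. *MET* had 0.19 and 0.11, both within these limits. *ERBB2* (0.37 and -0.12), *IGF1R* (-0.19 and 0.16) and *EPHA2* (0.31 and -0.05) had opposite signs in the 2 lines, with all 6 values inside the same limits. The difference of response between EBC-1 and SK-MES-1 was tested itself, with each lone array assumed to vary like the other groups. None of the 8 receptors passed it in limma (0 also at an unadjusted p under 0.05, against 16.9% of all genes), against 2.1% of 14032 genes. With 1 array per line this test has little power and does not measure the spread within either line. The value of *ERBB3* in SK-MES-1 rests in part on a probe that was not well above background in the control.

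Of 25 other receptor tyrosine kinases tested with *miR-150-3p*, 2 fell and 2 rose, beside 5.38% of all genes called. *MERTK*, of the same subfamily as *AXL*, fell by 1.07 (-1.20 and -0.95; limma, adjusted p = 0.0231). *EPHB2* fell by 0.56 (adjusted p = 0.0362). *RET*, the receptor of the GDNF family, rose by 1.23 (1.59 and 0.87; limma, adjusted p = 0.0362) and *STYK1* by 1.01 (adjusted p = 0.0484). The control of *RET* in EBC-1 was not well above background, so that the size of its rise there is uncertain. The count of 4 ran from 0 to 6 over the alternatives, with 0 when the EBC-1 array was left out. The median of the 25 was 0.00391, beside 0.04 for all genes. Among 21 regulators, *PTPN1*, the phosphatase that acts on the insulin receptor, fell by 0.61 and *ADAM17*, the sheddase of EGFR ligands, rose by 0.74. None of 16 ligands and 17 adaptors passed the test in limma (0 each; at an unadjusted p under 0.05, 2 and 5, against 30% of all genes), with medians of 0.06 and -0.02. Of the marker genes, *KRT14* rose by 1.45 (a size left uncertain by its dim EBC-1 control) and *DLL3* fell by 0.65 on the same arrays, and their part in the receptor values was not tested.

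**Figure D3:**
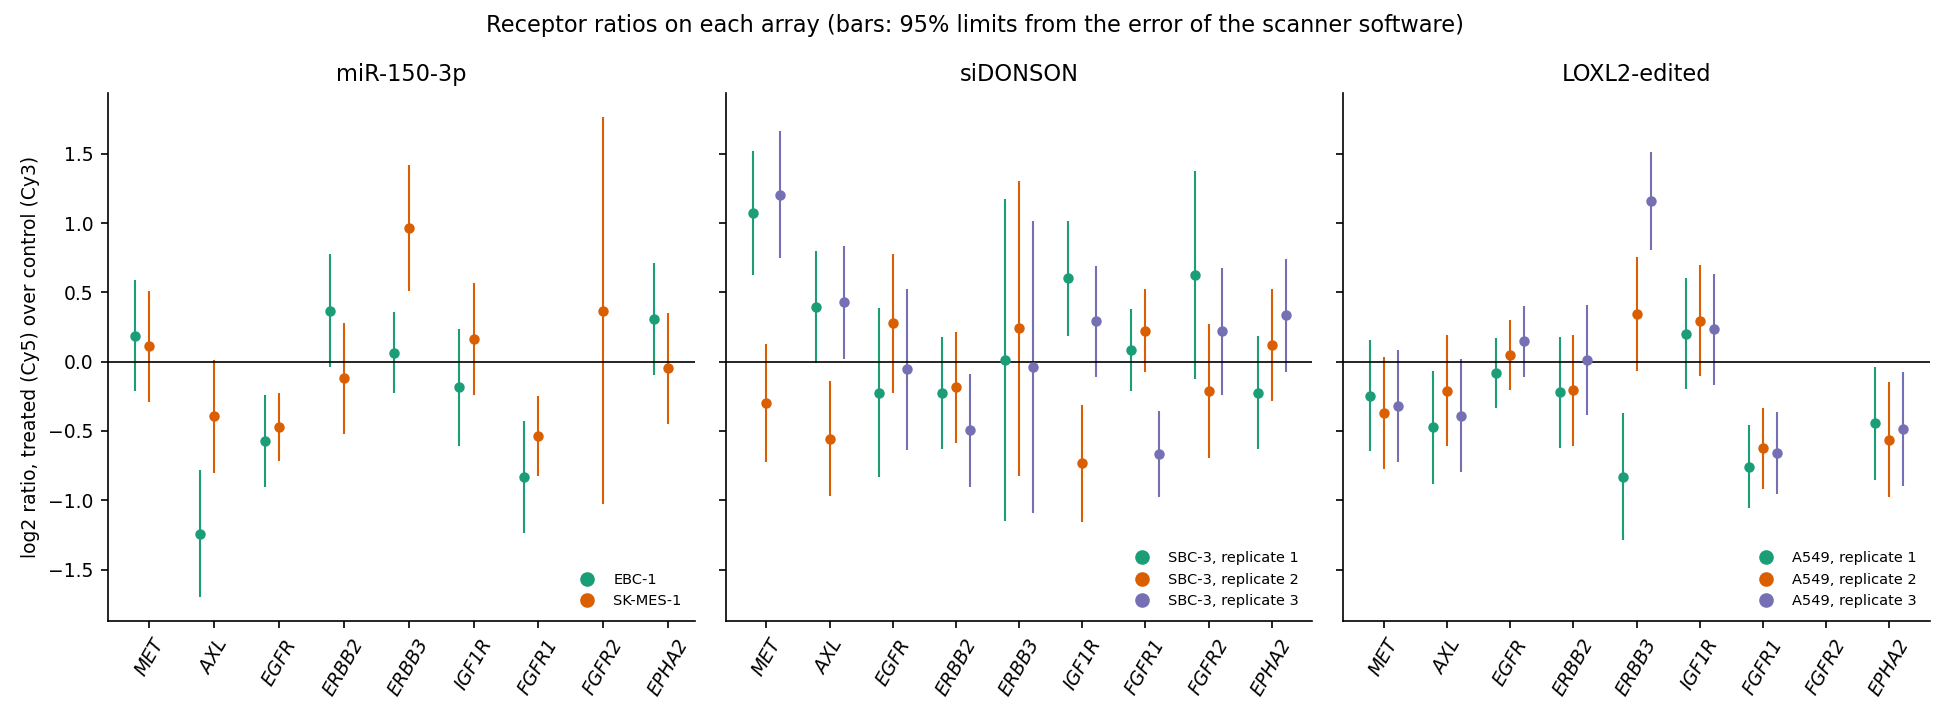
Log2 ratio of treated over control for 9 receptors on each array of the 3 treatments, with bars for the 95% limits from the error of the scanner software; *KIT* was not measured. *AXL*, *FGFR1* and *EGFR* are below 0 on both *miR-150-3p* arrays, *MET* is above 1 with siDONSON-1 and siDONSON-3 and at -0.30 with siDONSON-2, and *FGFR1* and *EPHA2* are below 0 in every *LOXL2*-edited sample.

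The siDONSON arrays address what follows the loss of *DONSON*, a replication fork protein, in SBC-3. Of the 9 receptors tested, 0 passed an adjusted p of 0.05 in limma, against 7.22% of 14454 genes (2 at an unadjusted p under 0.05, *MET* and *ERBB2*, against 26.1%). *MET* had log2 ratios of 1.08 with siDONSON-1, -0.30 with siDONSON-2 and 1.21 with siDONSON-3, a mean of 0.66 (limma, adjusted p = 0.153). *IGF1R* had 0.60, -0.73 and 0.29, and *AXL* 0.39, -0.56 and 0.43. For all 3 receptors siDONSON-2 was the only array below 0. With each array left out in turn, the mean for *MET* ran from 0.39 (without siDONSON-3) to 1.14 (without siDONSON-2; limma, adjusted p = 0.00658). The array whose removal gave that call is the one with the opposite sign, so the call depends on the choice of array.

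The fall of *DONSON* itself was smallest with siDONSON-2 (-1.79), and the red channels of the 3 SBC-3 arrays varied more (median SD of a gene 0.23) than their green channels (0.07). Each array had a different siRNA, so that the siRNA and the array cannot be told apart. *ERBB2* was below 0 on 3 of 3 arrays (-0.23, -0.19 and -0.50; adjusted p = 0.162). *FGFR2* had 0.63, -0.21 and 0.22. The value with siDONSON-1 includes a second probe (0.39), dim in the control, that entered on that array only, and the main probe gave 0.86 there. *EGFR*, *ERBB3*, *FGFR1* and *EPHA2* had means between -0.12 and 0.08.

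None of the 26 other receptor tyrosine kinases, 17 ligands and 15 adaptors passed the test with siDONSON in limma (0 each; at an unadjusted p under 0.05, 8, 4 and 3, against 26.1% of all genes), with medians of 0.00607, 0.26 and 0.17. The count for the other receptors ran from 0 to 7 over the alternatives. Of 20 regulators, 4 rose and 0 fell, beside 7.22% of all genes called. *SPRY2*, a Sprouty inhibitor of receptor signaling, had 1.07, 0.53 and 0.96 and rose by 0.85 (limma, adjusted p = 0.0121). *SPRED2*, a relative of the Sproutys, rose by 0.56, *PTPRK*, a receptor phosphatase, by 0.72, and *RASA1*, a RAS GTPase activator, by 0.53. The median of the 20 regulators was 0.38, beside 0.03 for all genes.

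In *LOXL2*-edited A549 cells, 2 of 8 tested receptors fell and 0 rose, against 14.4% of 15531 genes called in either direction (2 also at an unadjusted p under 0.05, against 31%). *FGFR1* had log2 ratios of -0.76, -0.63 and -0.66 and fell by 0.68 (limma, adjusted p = 0.034). *EPHA2* had -0.45, -0.56 and -0.48 and fell by 0.50 (limma, adjusted p = 0.0365). Both were below 0 on 3 of 3 arrays, beyond the 95% limits of the software error, and both *FGFR1* probes were below 0 on each array. Neither kept its call when any 1 edited sample was left out (adjusted p of 0.14 to 0.163 for *FGFR1* and 0.142 to 0.19 for *EPHA2*). With no dye swap, a dye effect of a probe cannot be told apart from the treatment. With the mean of the other treatments' arrays subtracted, *FGFR1* was at -0.34 (adjusted p = 0.365) and *EPHA2* at -0.60 (adjusted p = 0.0612).

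*MET* had -0.25, -0.37 and -0.32, a mean of -0.31 (limma, adjusted p = 0.457), and *AXL* had -0.47, -0.21 and -0.39. *IGF1R* had 0.20, 0.30 and 0.23. These 3 receptors had the same sign on 3 of 3 arrays without passing the test, and passed it when the edited samples alone gave the spread (adjusted p of 0.0198, 0.0262 and 0.0306 for *MET*, *IGF1R* and *AXL*), a setting that called 5873 genes. All values of *MET* and *IGF1R* and 2 of 3 of *AXL* lay within the 95% limits of the software error. *ERBB3* was the most variable, at -0.83, 0.34 and 1.16, with both signs among the edited samples. The middle value includes 1 more probe (-0.48), dim in the control, that entered on that array only; the other two gave 0.94 and 0.58. *EGFR* and *ERBB2* had means of 0.04 and -0.14. The median of the 8 receptors was -0.23, beside 0.02 for all genes.

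The lists of the pathway were examined next in *LOXL2*-edited cells, where 14.4% of all genes were called. Of 24 other receptor tyrosine kinases, 6 fell and 2 rose, and the count of 8 dropped to 2 or 3 with an edited sample left out. *NTRK3*, the neurotrophin-3 receptor, had -2.93, -2.74 and -2.87 and fell by 2.85 (limma, adjusted p = 0.000494). *ROR1*, a WNT5A receptor, fell by 1.54, *EPHA4* by 0.91, *MERTK* by 0.89, *FGFR4* by 0.73 and *MST1R* by 0.65. The insulin receptor gene *INSR* rose by 0.80 and *STYK1* by 0.72. In the A549 controls, *STYK1* and *EPHA4* were above background on 1 of 3 arrays, which makes the sizes of their changes uncertain. The fall of *NTRK3* was thus the deepest in the family, and *EPHA4* was uneven between the edited samples (-0.43, -0.60 and -1.69). The median of the 24 was -0.12, beside 0.02 for all genes.

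Of 21 ligands, 1 fell and 3 rose, beside 14.4% of all genes called. *IGF2* had -1.80, -1.96 and -1.31 and fell by 1.69 (limma, adjusted p = 0.000942). The EPHA2 ligand gene *EFNA1* had 1.59, 1.82 and 1.47 and rose by 1.63 (adjusted p = 0.00914), on the same arrays on which *EPHA2* fell, and *EFNA4* rose by 0.42. *KITLG*, the ligand of the unmeasured KIT, rose by 1.36. *IGF1*, the other ligand of IGF1R, did not pass the test (-0.23).

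Of 16 adaptors and effectors, *GAB2* fell by 0.75 and *PIK3R1*, a PI3K regulatory subunit, by 0.62, and the docking protein gene *IRS1* (0.75) and *PLCG1* (0.57) rose. Of 21 regulators, 5 fell and 2 rose, again beside 14.4%. *SPRY2* had -1.49, -1.31 and -1.45 and fell by 1.41 (limma, adjusted p = 0.000942), *SPRY1* by 0.96, *SH2B3* by 0.79, *SPRED2* by 0.55 and *ADAM17* by 0.54, while *IGFBP3* (0.85) and *PTPN1* (0.56) rose. *SPRY2* and *SPRED2* were thus lower in edited A549 and higher in siDONSON-transfected SBC-3; the difference between these treatments, in different lines, was not tested. Marker genes moved on the same arrays: *EPCAM* fell by 2.43, *FN1* by 1.70, and *CDH1* rose by 1.36, as did *NAPSA* by less, and their part in the receptor values was not tested.

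**Figure D4:**
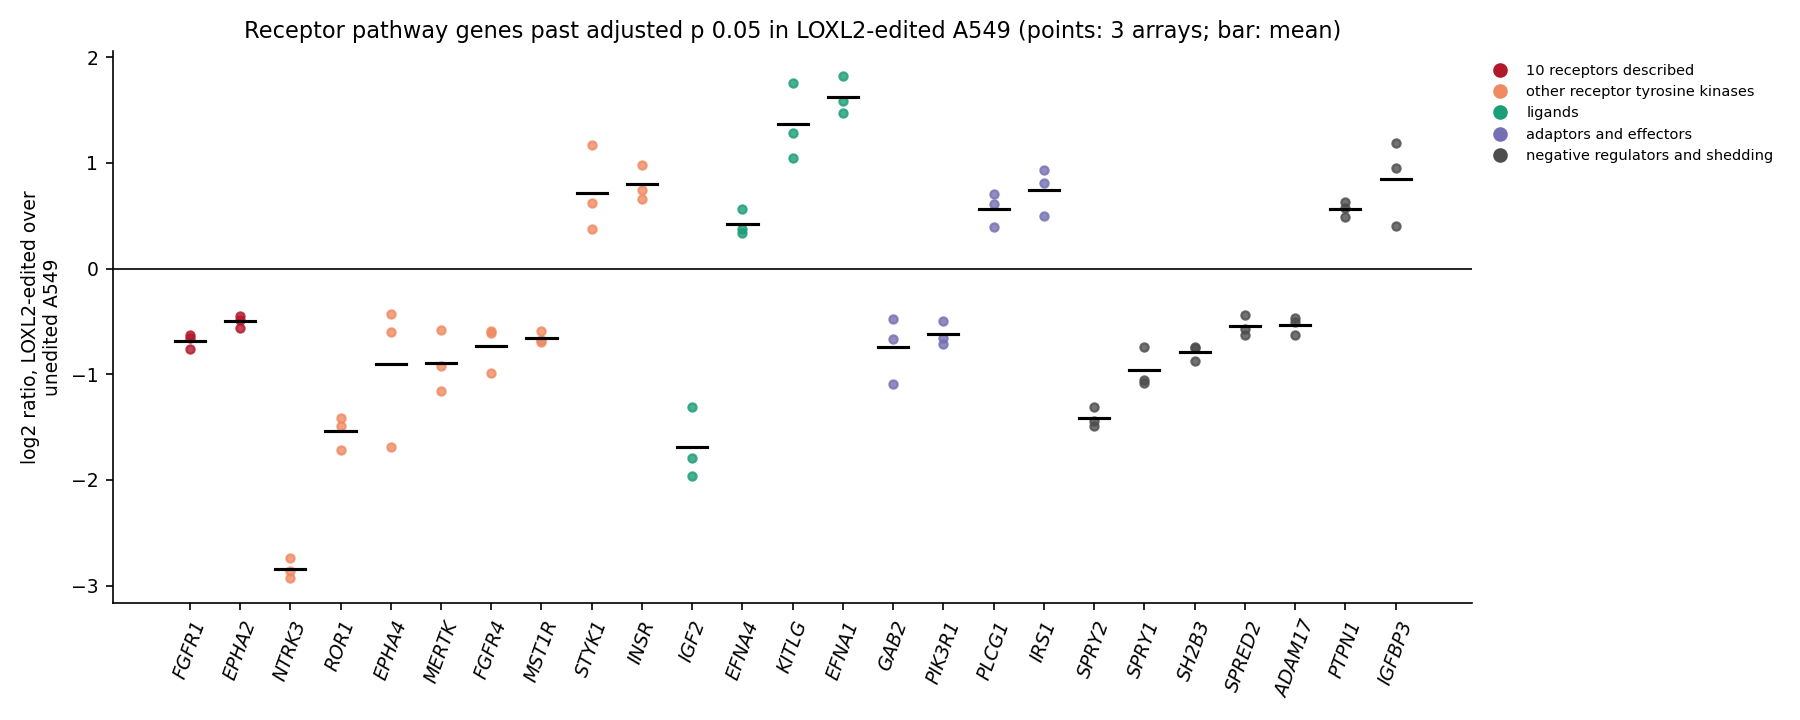
Log2 ratio of *LOXL2*-edited over unedited A549 for the receptors, other receptor tyrosine kinases, ligands, adaptors and regulators past an adjusted p of 0.05 in limma; points are the 3 arrays and bars the means. *NTRK3* lies near -2.85 and *EFNA1* near 1.63.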

How the data were processed

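RNA of 4 lung cancer lines was hybridized on 8 2-color arrays of 1 slide, treated RNA in Cy5 and control RNA in Cy3, without dye swap. The authors deposited scanner output holding each channel's intensity, with processed intensities that their software had background-subtracted, detrended and dye-normalized (linear and lowess). The deposited log10 ratios differed from a second deposited table by 0 at most; of these columns only the error of the log10 ratio was used. Controls, and 81 to 133 spots per array marked as outliers, were left out. Green was well above background at 41.1% to 46.4% of spots and red at 48.5% to 56.2%; the number of arrays limits the precision. Of 50096 accessions, 24782 matched a symbol in a GRCh38.p14 table, used for names and gene order only since the files name an older build.

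Log2 ratios came from the processed intensities of probes well above background in at least 1 channel, averaged per gene. Group means were tested against 0 with limma 3.58.1 in R 4.3.3 on all 8 arrays, with Benjamini-Hochberg adjustment over all genes (0.05), after tests on simulated data. Control levels were green intensities after Aquantile. Where a probe was well above background on no array of a line, it was set, per array, to the higher of its own signal and the lowest signal well above background, and folds are given as at least that size; with 2 colors they are open to dye bias. P-values measure the spread between these arrays, which may be technical.

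The members and lists were chosen with earlier results of these data known. Named were the 10 receptors, the targeted genes, from each list at most 5 genes past the threshold in each direction and the 5 of widest range between lines, the 3 genes nearest to each receptor in pattern and the 10 genes on either side; further names were chosen after their values were seen. Alternatives covered background correction (normexp, offset 50, on median signals, as no mean signal was used), centring, the dim filter, marked spots, the probe rule, dye bias, the arrays in the fit, the level scaling and each array left out.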

Additional observations from a re-analysis of the deposited data

How the results depend on the processing

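No paired analysis was possible because the siDONSON and *LOXL2*-edited samples, which share replicate numbers, are different lines with different treatments never compared directly. The control levels of SBC-3 and A549 were compared, and an alternative subtracted the mean of the other treatments' arrays. The causes of the moves were not tested, and the alternatives for gene windows and for the 2 *miR-150-3p* lines were chosen after the data were seen. With *miR-150-3p*, limma called 765 genes and 0 of the receptors; genes were 1537 with normexp, 198 without the filter on dim probes, 224 with the other treatments' mean subtracted, 0 with only its own arrays, 2631 with the lines apart and 1 to 2824 with an array left out. Receptors called were 1 with both channels bright, 1 with the brightest probe, 1 with the lines apart and 0 to 1 with an array left out. With siDONSON, 1044 genes became 2897 without the filter, 26 with its own arrays and 97 to 1410 with an array left out, and receptors 0 to 1. In *LOXL2*-edited cells, 2229 genes became 5375 without the filter, 821 with the others subtracted, 5873 with its own arrays and 470 to 2889 with an array left out; the 2 receptors became 0, 5 and 0 to 3 in the last 3 settings. For EBC-1 minus SK-MES-1, 295 genes became 545 with normexp, 125 without the filter and 0 to 749 with an array left out. No called receptor changed direction. Receptors past 4-fold were, for EBC-1 against SK-MES-1, 3 and then 1 with normexp, 5 in the red channel, 6 at a log2 difference of 1 and 7 with limma, whose spread for lines with 1 control came from the SBC-3 and A549 controls. Against SBC-3, EBC-1 had 5, then 2 with normexp, 8 at log2 1, 2 at log2 3 and 9 with limma, and against A549 4, then 2, 2 at log2 3 and 7 with limma. SK-MES-1 against SBC-3 had 3, then 7 at log2 1, 9 with limma and 3 to 4 with a control left out, SK-MES-1 against A549 0, then 2 and 6, and SBC-3 against A549 3, then 7, 9 and 2 to 3. The *MET* range of 8.55 was 7.40 with normexp and 8.08 in the red channel, and the median of its neighbors, 2.98, was 1.48 and 2.72.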
